A study of Rattus norvegicus with 2 samples.

Results

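Interferon-stimulated genes were examined in cultured epidermal keratinocytes of newborn rats (NRK cells), the cells that form the outer layer of the skin, after 5 days with or without all-trans retinoic acid. The members were the genes of a list of 59 interferon response symbols for which the platform annotation gave a probe set with exactly 1 gene symbol. Of these, 57 were measured, among 22093 genes in all. Igtp was skipped because its probe set carries several symbols, and no probe set carries the symbol Ddx58. The study holds 2 arrays. The first was hybridised with RNA of cells that received 5 µM all-trans retinoic acid (RA), a vitamin A metabolite that binds nuclear receptors, for 5 days. The second was hybridised with RNA of cells kept for 5 days whose label carries no treatment mark, and it is called the array without RA. The treatment protocol names a vehicle control as the only alternative to RA, and RA was dissolved in dimethyl sulfoxide. Both cultures were kept in Dulbecco's medium with hydrocortisone, antibiotics and fetal bovine serum, and the medium was renewed daily. Whether cultures were pooled for an array is not stated in the labels.

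Interferons are secreted proteins that signal the presence of viruses and other microbes. Type I interferons bind the receptor chains Ifnar1 and Ifnar2, and Janus kinases then activate a complex with Stat2 and Irf9 that binds the interferon-stimulated response element (ISRE) in promoters. Interferon gamma binds Ifngr1 and Ifngr2 and acts on promoters that hold the gamma-activated site (GAS). The genes so induced encode sensors of foreign nucleic acid, antiviral effectors and regulators of the response itself, and keratinocytes are known to mount it.

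Each group had 1 array, so that the values below carry no replicate error, and neither a test nor a p-value was possible. Levels are log2 signals as the authors deposited them, and each difference is RA minus without RA in log2 units, where 1 unit is 2-fold on the deposited scale. A floor was set at the median of all values, 3.81, below or near which a signal may be background. Control probe sets show how far the arrays differ, and the kinds of control differ among themselves. The 92 spikes, with medians of 3.29 with RA and 3.28 without RA, had 95% of their differences between -0.43 and 0.26, and the 1153 rat negative controls between -2.17 and 2.01. These negative controls had medians of 4.47 with RA and 4.57 without RA, above the floor. A signal above the floor may therefore also be background. The 23 background control probe sets were lower, with medians of 2.81 with RA and 2.90 without RA. Their differences had 95% between -0.14 and 0.34. Thus the kinds of control place background at unlike levels. The 399 rat positive control probe sets had medians of 10.28 with RA and 10.24 without RA, and 95% of their differences lay between -1.72 and 2.14, leaving out equal tails in each case. Among these positive controls, 12.5% were past 2-fold upward with RA and 15.3% past 2-fold downward, both larger shares than among all genes. Among the negative controls these shares were 11.9% and 15.7%. Of the 57 members, 11 differed by more than 2.14 and 0 by less than -1.72. The share of all genes past these bounds was not counted. At 4-fold, a bound slightly under 2.14, 1.97% of all genes were higher. The 13 measured keratinocyte markers were at 6.66 to 19.65 with RA and at 7.17 to 19.93 without RA, all above the floor.

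Interferon-stimulated genes were shifted to higher signal on the RA array. The members were chosen with earlier results of these data known. With a difference of at least 2-fold as the bound, 26 of the 57 measured members (45.6%) had the higher signal with RA and 0 had the lower. Over all 22093 genes the shares past this bound were 5.09% higher and 3.64% lower. The median difference of the members was 0.90, against -0.026 for all genes. A difference above 0 was found for 51 of the 57 members and for 44% of all genes. At 4-fold, 15 members were higher, against 1.97% of all genes. In such bulk RNA, more cells that express a gene and more RNA per cell cannot be told apart.

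Of the 57, 49 reached the floor on at least 1 array, and 43 did so on both. The 6 that reached it on the RA array only had to differ in that direction. All 26 higher members are among the 49, and 45 of the 49 had a difference above 0. Of the 14274 genes above the floor on at least 1 array, 7.88% were at least 2-fold higher, 5.63% lower, and 46.4% had a difference above 0. Among the 43 members above the floor on both arrays, 23 were at least 2-fold higher and 0 lower, where 8.32% of the 13202 genes above the floor on both arrays were higher and 5.9% lower. The share of higher genes varies with signal. Among genes with a mean level under 5, 3 of 14 members were at least 2-fold higher, against 1.41% of all such genes. For mean levels between 5 and 8 it was 17 of 24 members and 7.85% of genes, and above 8 it was 6 of 11 members and 14.8% of genes.

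**Figure D1:**
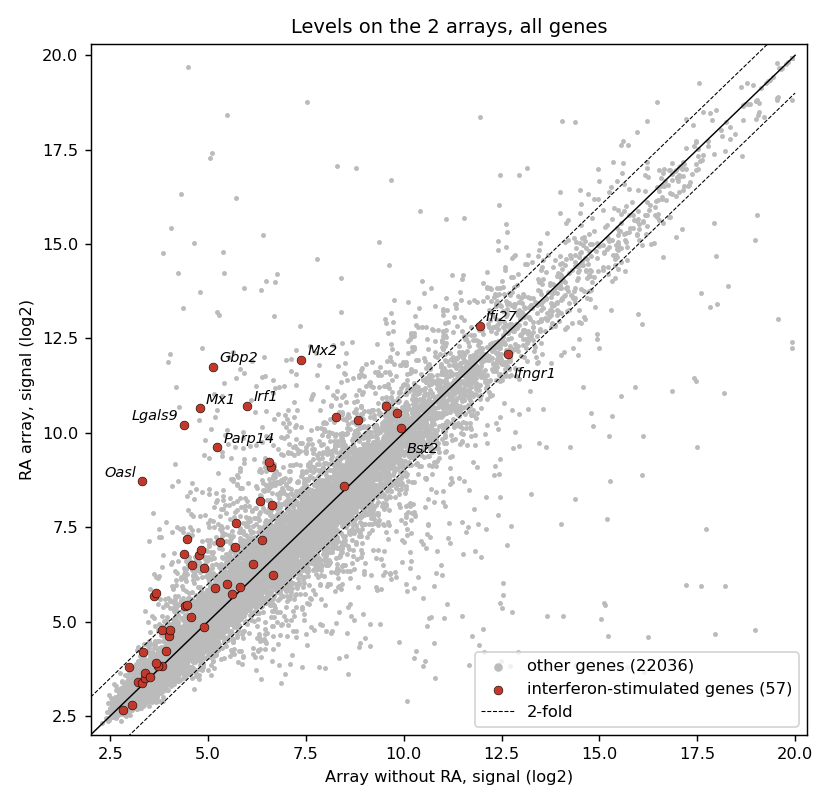
Each point is a gene, with its log2 signal on the RA array on the vertical axis and on the array without RA on the horizontal axis. The solid line marks equal signals and the dashed lines 2-fold. The 57 interferon-stimulated genes (red) lie mostly above the solid line, 26 of them above the upper dashed line and 0 below the lower one.

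**Figure D2:**
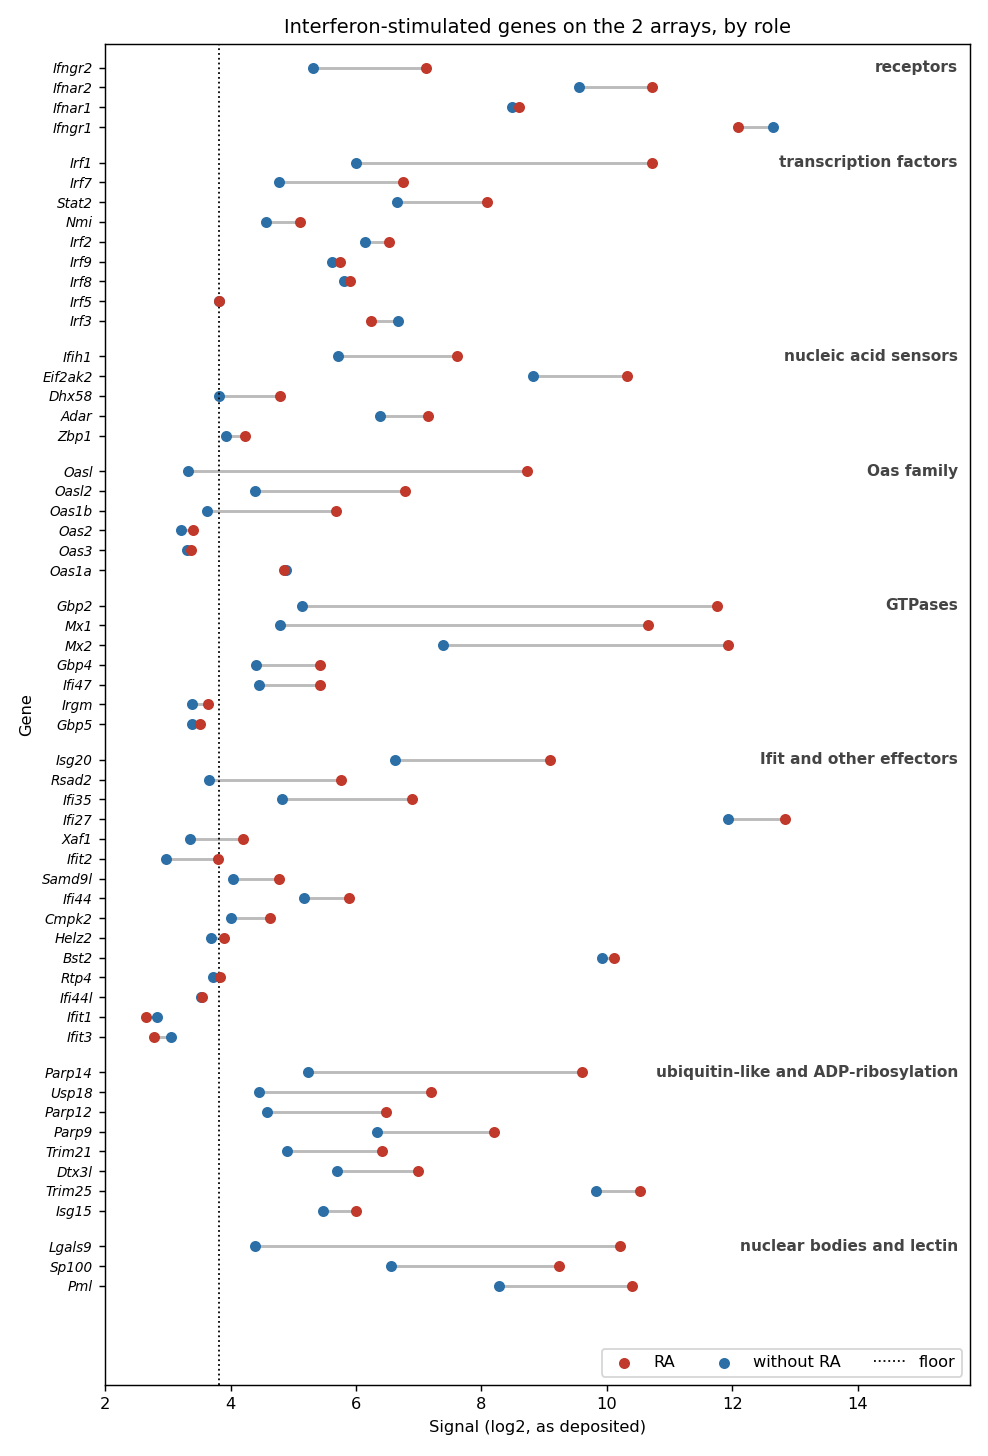
Log2 signals of the 57 members on the RA array (red) and the array without RA (blue), grouped by role, with the floor of 3.81 as a dotted line. The longest segments belong to Gbp2, Mx1, Lgals9, Oasl, Irf1, Mx2 and Parp14, and the Ifit genes lie under the floor on both arrays.

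The 7 members with the largest differences ranked among the first 82 of the 14274 genes above the floor. Gbp2, a guanylate-binding GTPase that attacks intracellular microbes and their vacuoles, was at 11.75 with RA and 5.14 without RA, a difference of 6.62 that ranked 32nd. Mx1, a dynamin-like GTPase that blocks virus replication, was at 10.65 with RA and 4.79 without RA (5.86, rank 41). Lgals9 (galectin 9, a secreted sugar-binding protein that modulates immune cells) was at 10.21 with RA and 4.39 without RA, a difference of 5.82. Its level without RA was under the median of the negative controls on that array, 4.57, and may be background. On the array without RA these 3 genes were at 5.14 or less, and on the RA array at 10.21 or more. Oasl, of the oligoadenylate synthetase-like proteins, was at 8.72 with RA and at 3.32, under the floor, without RA, so that its difference of 5.40 rests on a signal that may be background. Irf1, a transcription factor that binds ISRE-like sites and is itself induced by interferon gamma, was at 10.71 with RA and 6.0 without RA (4.71). Mx2, a relative of Mx1, was at 11.94 with RA and 7.38 without RA, a difference of 4.56. Parp14, an ADP-ribosyltransferase that modifies proteins in the interferon and interleukin responses, was at 9.61 with RA and 5.24 without RA (4.37). Mx2 was the only 1 of these 7 with a level above 7 on the array without RA.

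The upstream sequences of 4 of these genes are shown because they hold letters of the kind that interferon-activated factors bind. They are the 250 bases before the annotated start, from RefSeq, build GRCr8. Irf1 lies on the plus strand at chr10:38417685-38417934, Gbp2 on the plus strand at chr2:234005477-234005726, Parp14 on the plus strand at chr11:78407884-78408133 and Lgals9 on the minus strand at chr10:64428071-64428320. Capitals mark the ISRE core GAAANNGAAA, on either strand, and the GAS letters TTCNNNGAA.
Irf1: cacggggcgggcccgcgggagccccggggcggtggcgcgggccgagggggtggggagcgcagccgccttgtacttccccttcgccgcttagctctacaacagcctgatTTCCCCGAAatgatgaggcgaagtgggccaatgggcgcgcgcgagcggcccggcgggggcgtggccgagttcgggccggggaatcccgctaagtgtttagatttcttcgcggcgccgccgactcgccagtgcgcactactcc
Gbp2: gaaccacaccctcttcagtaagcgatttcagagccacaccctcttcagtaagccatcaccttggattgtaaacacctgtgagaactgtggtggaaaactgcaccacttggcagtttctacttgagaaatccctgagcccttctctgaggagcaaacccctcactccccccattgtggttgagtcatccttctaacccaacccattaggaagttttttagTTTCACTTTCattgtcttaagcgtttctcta
Parp14: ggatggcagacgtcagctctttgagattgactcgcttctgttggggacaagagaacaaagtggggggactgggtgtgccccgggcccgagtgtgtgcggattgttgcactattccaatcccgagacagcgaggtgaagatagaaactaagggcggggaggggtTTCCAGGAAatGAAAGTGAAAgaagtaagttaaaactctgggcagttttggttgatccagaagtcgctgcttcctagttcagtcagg
Lgals9: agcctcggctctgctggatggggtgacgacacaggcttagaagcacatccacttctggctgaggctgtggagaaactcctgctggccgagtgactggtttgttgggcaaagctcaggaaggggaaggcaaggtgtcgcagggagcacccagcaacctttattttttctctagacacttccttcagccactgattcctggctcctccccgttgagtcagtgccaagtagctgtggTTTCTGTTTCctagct
Positions are counted in bases from the annotated start, negative before it. In Irf1 the capitals are a GAS match from -142 to -134. Gbp2 has an ISRE core match on the opposite strand from -31 to -22, and Lgals9 has such a match from -16 to -7. Parp14 has a GAS match from -87 to -79 and an ISRE core match from -76 to -67.

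Windows of 300 bases, 250 before and 50 after the start, were in the RefSeq table for 45 of the 57 members. The ISRE core was found in 26 of these 45 windows (57.8%), against 3.77% of the windows of 27457 genes. GAS letters were found in 11 (24.4%), against 8.68% of all windows. Both strands were searched, overlapping matches were each counted, and the ISRE core and GAS may share letters, as in Bst2. The DR5 retinoic acid response element, a direct repeat that RA receptors bind, was found in 0 of 45 windows, against 0.375% of all windows. With so low a share over all windows, this count says little about the members. No other arrangement of the repeat was searched. These matches are letters in a window, not measured binding.

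The ISRE core stood both in members that were at least 2-fold higher and in members that were not. It was in 15 of the 24 windows of members at least 2-fold higher with RA (62.5%) and in 11 of the 21 windows of the other members (52.4%). The median difference was 1.39 for the 26 members with an ISRE core and 0.97 for the 19 without. For GAS letters the counts were 4 of 24 and 7 of 21. No test of these differences was made. Mx1 and Oasl, with differences of 5.86 and 5.40, had neither set of letters in their windows. Only the first listed window of each gene and these exact letters were searched. Other annotated starts and near matches were not. For Irf2, Dhx58, Adar, Zbp1, Oas2, Mx2, Ifit1, Ifit2, Samd9l, Rtp4, Isg15 and Usp18 no window was used.

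**Figure D3:**
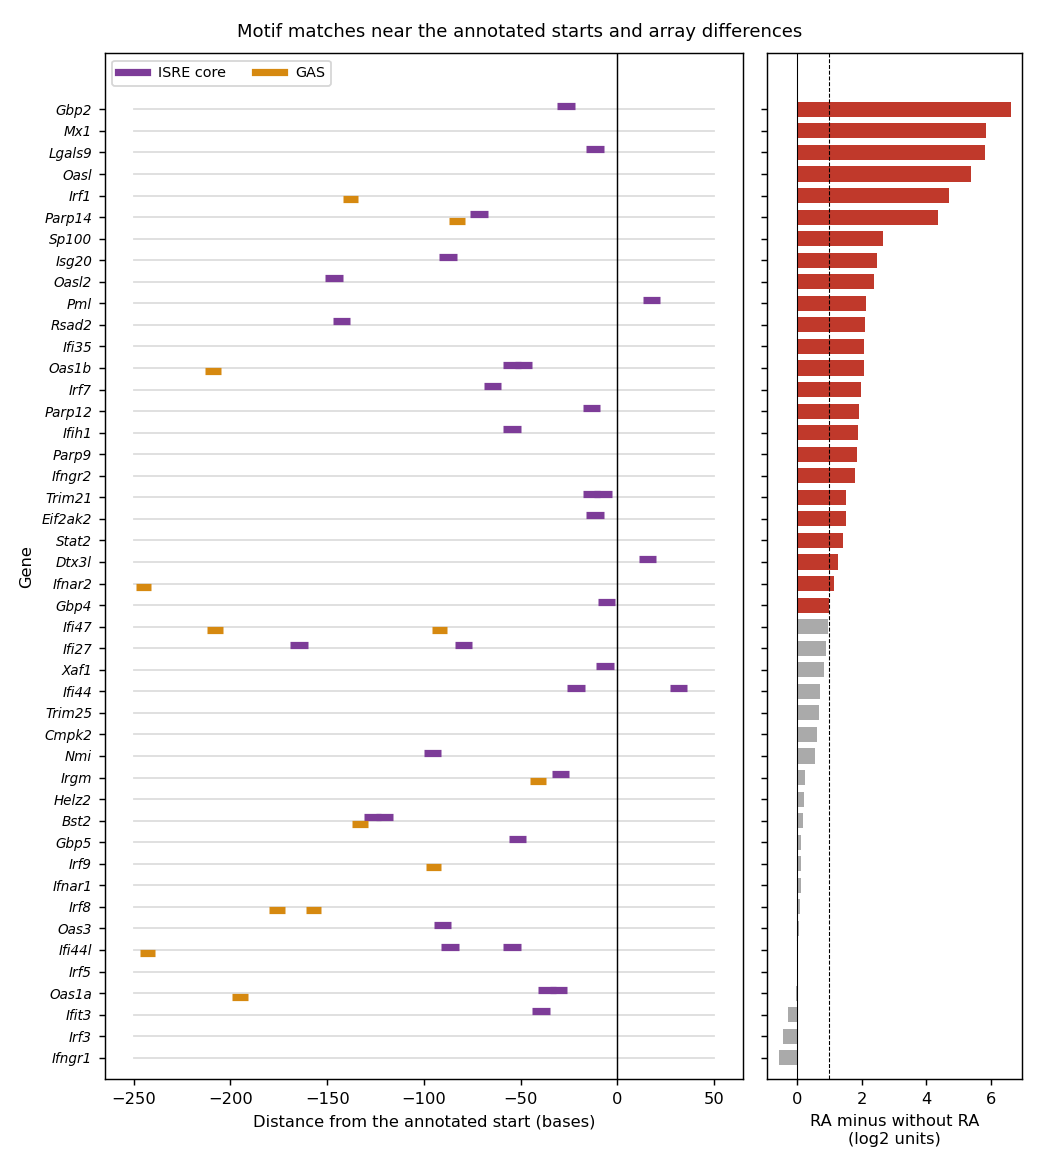
Positions of ISRE core (purple) and GAS (orange) matches in bases from the annotated start, for the 45 members with a RefSeq window, ordered by RA minus without RA, which the bars on the right give in log2 units (red, at least 2-fold higher). Matches stand in 17 of the 24 windows of the red members and in 14 of the 21 others, at both ends of the order. Over the windows of all 27457 genes, 11.9% hold a match of either kind.

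Oas1a and Oas1b, nearby paralogues of the oligoadenylate synthetases, had like upstream letters and unlike differences. These enzymes sense double-stranded RNA and make the messenger that activates the nuclease RNase L. The windows around their ISRE cores are shown with Bst2 and Ifit3, which also have the core and differed little, and with Irf7 and Isg20, which were at least 2-fold higher. In build GRCr8, Oas1a is at chr12:41330405-41330460 on the plus strand, Oas1b at chr12:41395876-41395931 on the minus strand, Bst2 at chr16:18255063-18255118 on the minus strand, Ifit3 at chr1:241527262-241527311 on the plus strand, Irf7 at chr1:205800063-205800112 on the minus strand and Isg20 at chr1:142239947-142239996 on the plus strand. Capitals mark the same letters as above.
Oas1a: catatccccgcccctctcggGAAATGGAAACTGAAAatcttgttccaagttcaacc
Oas1b: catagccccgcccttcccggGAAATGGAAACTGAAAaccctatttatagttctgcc
Bst2: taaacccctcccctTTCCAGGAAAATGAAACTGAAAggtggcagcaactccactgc
Ifit3: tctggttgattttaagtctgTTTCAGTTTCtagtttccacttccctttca
Irf7: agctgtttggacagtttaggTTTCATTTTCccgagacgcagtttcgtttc
Isg20: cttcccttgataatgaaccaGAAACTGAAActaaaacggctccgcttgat
The Oas1a and Oas1b windows had identical letters at 45 of 56 positions, and both held 2 overlapping ISRE cores. Oas1a was at 4.85 with RA and 4.89 without RA, a difference of -0.037. Oas1b was at 5.68 with RA and at 3.61, under the floor, without RA, a difference of 2.07. Their probe sets, like those of other close relatives below, may share signal.

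The receptors were present on both arrays. Ifnar1 was at 8.59 with RA and 8.48 without RA, and Ifnar2, the other chain of the type I receptor, was at 10.71 with RA and 9.55 without RA, a difference of 1.16. Ifngr2, the signalling chain of the interferon gamma receptor, was at 7.11 with RA and 5.31 without RA (1.81). Ifngr1, its ligand-binding chain, was the member furthest lower, at 12.09 with RA and 12.66 without RA, a difference of -0.57. Among receptor and signalling genes outside the list, Il10rb, a chain shared by the interferon lambda and interleukin 10 receptors, was at 12.54 with RA and 11.08 without RA. Ifnlr1, the other interferon lambda receptor chain, was at 7.05 with RA and 5.87 without RA, and the kinase gene Jak1 at 10.70 with RA and 9.65 without RA. Each of these 3 genes was higher by over 1 unit, while the kinase genes Jak2 and Tyk2 differed by -0.21 and 0.25.

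In this receptor and JAK-STAT list of 18 measured genes, 4 had at least 2-fold more signal with RA and 1 had less, beside 5.09% and 3.64% of all genes, with a median difference of 0.16 over the 15 above the floor. The remaining higher gene was Ptpn6, a phosphatase that damps cytokine signals, at 8.63 with RA and 6.98 without RA. The lower gene was Socs3, a feedback inhibitor of cytokine receptors, at 5.28 with RA and 6.66 without RA. Socs1, the feedback inhibitor of interferon signals, was under the floor on both arrays, at 3.46 with RA and 3.31 without RA.

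The interferon genes themselves lay under the floor on both arrays. The 8 measured ligand genes, Ifna2, Ifna4, Ifnb1, Ifng, Ifnk, Ifne, Ifnl1 and Ifnl3, were at 2.93 to 3.50 with RA and at 3.13 to 3.66 without RA. Ifnb1 was at 2.93 with RA and 3.40 without RA, and Ifnk, the interferon kappa gene known from human keratinocytes, at 3.42 with RA and 3.31 without RA. Only the levels at day 5 were measured, and array signals under the floor do not show that a transcript was absent.

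**Figure D4:**
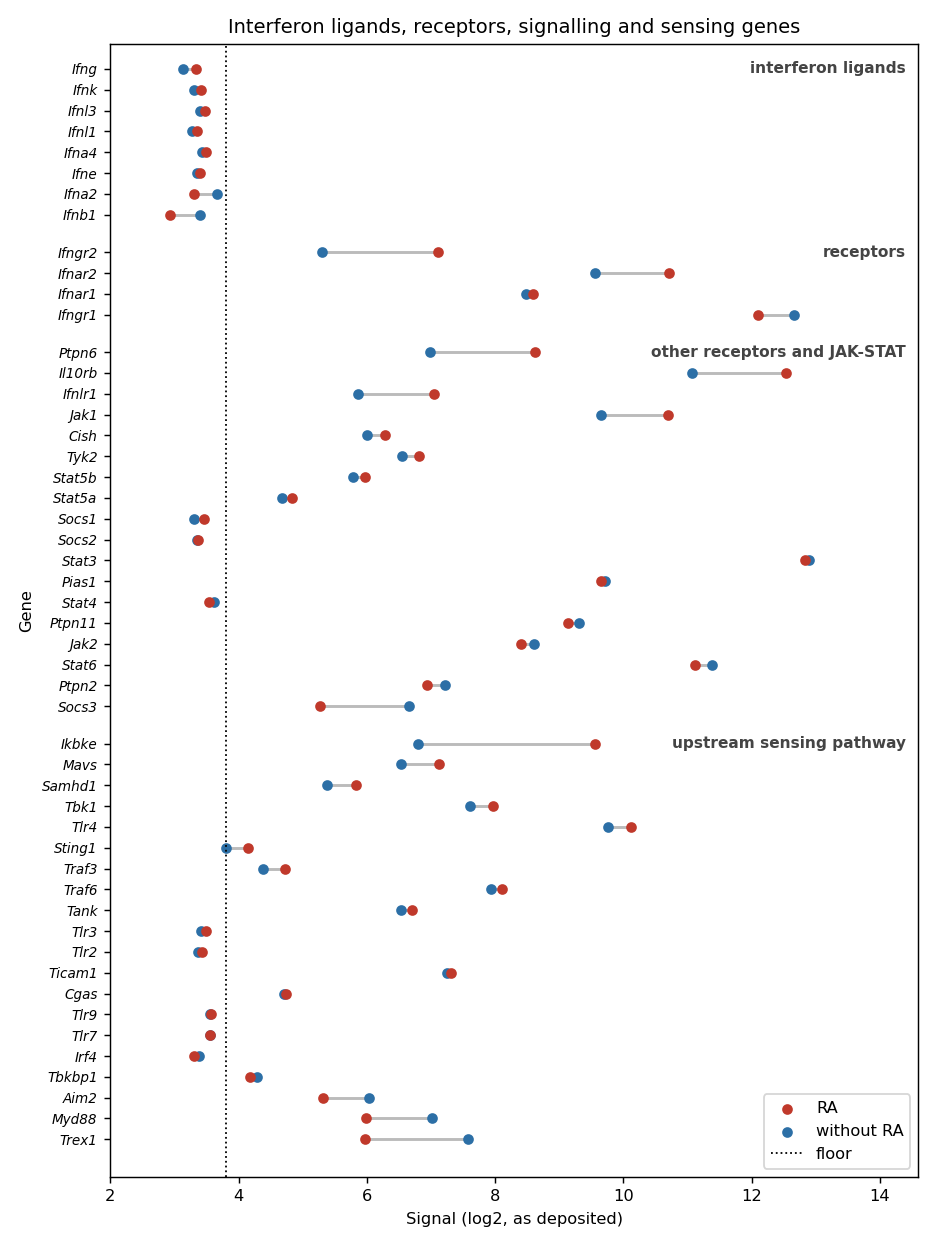
Log2 signals of interferon ligands, the 4 receptor members, other receptor and JAK-STAT genes and genes of the upstream sensing pathway on the RA array (red) and the array without RA (blue), with the floor of 3.81 dotted. The 8 ligand genes lie under the floor, and Ikbke has the longest segment of the sensing genes.

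The counts by role below stand beside the same share over all genes, 5.09% at least 2-fold higher, and each rests on few genes. Among the 9 transcription regulators of the list, 3 were at least 2-fold higher with RA. Beside Irf1, these were Irf7, the factor that amplifies type I interferon production, at 6.75 with RA and 4.77 without RA (1.98), and Stat2 at 8.08 with RA and 6.65 without RA (1.44). Irf9, the DNA-binding partner of Stat2, differed by 0.12, at 5.74 with RA and 5.62 without RA. Thus the subunits of the same complex had unlike differences. Irf2, which competes with Irf1 for its sites, was at 6.52 with RA and 6.14 without RA. Irf3, the constitutive factor downstream of nucleic acid sensors, was at 6.24 with RA and 6.66 without RA, and Irf8, known from myeloid cells, at 5.91 with RA and 5.80 without RA. Irf5 had the same value on both arrays, 3.81, which is also the floor. Nmi, a protein that binds STAT and Myc proteins, was at 5.11 with RA and 4.56 without RA, a difference of 0.55.

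All 5 measured nucleic acid sensors had a positive difference, 2 of them of at least 2-fold. Ifih1, a helicase that senses long double-stranded RNA, was at 7.61 with RA and 5.71 without RA (1.9). Eif2ak2, the RNA-activated kinase that stops translation, was at 10.33 with RA and 8.82 without RA (1.5). Dhx58, a helicase that regulates the others, was just under 2-fold with a difference of 0.96, at 4.78 with RA and 3.82 without RA, close to the floor. Adar, which edits adenosine in double-stranded RNA, differed by 0.77, and Zbp1, a sensor that triggers cell death, by 0.29. A probe set outside the rule belongs here. The platform gives the symbol Rig1 for the gene that RefSeq lists with Ddx58 as a synonym, the RNA helicase first named for its induction by retinoic acid in leukaemia cells. Rig1 was at 8.48 with RA and 6.45 without RA, a difference of 2.03, and it is not counted among the 57.

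A further list held genes that act between sensing and interferon production. Of 20 measured genes, 1 was at least 2-fold higher and 2 were lower, where 5.09% of all genes were higher and 3.64% lower. Over the 15 above the floor, 11 differences were positive and 4 negative, with a median of 0.18. The higher gene was Ikbke, a kinase that activates Irf3 and Irf7, at 9.56 with RA and 6.80 without RA. The lower genes were Trex1, a nuclease that removes cytosolic DNA, at 5.97 with RA and 7.58 without RA, and Myd88, the adaptor of Toll-like receptors, at 5.99 with RA and 7.01 without RA. Mavs, the adaptor of the RNA helicases, differed by 0.60, Tbk1 by 0.37, Sting1 by 0.34 and Cgas by 0.02.

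In the oligoadenylate synthetase family, 3 of 6 members were at least 2-fold higher with RA. Beside Oasl and Oas1b, this was Oasl2, at 6.78 with RA and 4.38 without RA (2.40). Oas2 and Oas3 were under the floor on both arrays, at 3.39 and 3.37 with RA and at 3.21 and 3.30 without RA. The adjacent genes Oasl and Oasl2 were therefore both higher, and the adjacent genes Oas3 and Oas2 were both under the floor.

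Of the other GTPases, 1 reached 2-fold by a narrow margin. Gbp4 was at 5.42 with RA and 4.41 without RA, a difference of 1.01, and Ifi47, an immunity-related GTPase, lay just inside 2-fold at 5.43 with RA and 4.45 without RA (0.97). Gbp5 and Irgm were under the floor on both arrays, at 3.52 and 3.64 with RA and at 3.38 and 3.39 without RA.

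Of the 15 Ifit and other antiviral effector genes, 3 were at least 2-fold higher with RA. Isg20, an RNA exonuclease, was at 9.09 with RA and 6.62 without RA (2.47). Rsad2 (viperin, an enzyme that makes a chain-terminating nucleotide) was at 5.76 with RA and at 3.66, under the floor, without RA. Ifi35 was at 6.89 with RA and 4.82 without RA, a difference of 2.07. The Ifit genes, whose products bind foreign RNA and are among the genes most used to report type I interferon, were under the floor on both arrays. Ifit1 was at 2.65 with RA and 2.82 without RA, Ifit3 at 2.78 with RA and 3.05 without RA, and Ifit2 at 3.80, just under the floor, with RA and 2.97 without RA. Bst2 (tetherin, which holds virus particles at the cell surface) was at 10.12 with RA and 9.92 without RA. Ifi27 was the brightest member, at 12.83 with RA and 11.94 without RA, a difference of 0.90. Xaf1, Samd9l, Ifi44 and Cmpk2 differed by 0.85, 0.74, 0.72 and 0.62. Helz2 and Rtp4 differed by 0.21 and 0.12 at levels of 3.90 or less on both arrays, and Ifi44l was under the floor on both.

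Genes of protein modification had 6 of 8 members at least 2-fold higher with RA. Isg15, the ubiquitin-like protein that is attached to other proteins in this response, was not among them, at 5.99 with RA and 5.47 without RA (0.52). Usp18, the protease that removes it and that also blocks Ifnar2, was at 7.19 with RA and 4.46 without RA, a difference of 2.73. Uba7, the activating enzyme of Isg15 in a further list, was at 6.68 with RA and 4.70 without RA, and Ube2l6, its conjugating enzyme, at 5.67 with RA and 5.36 without RA. Parp9 and its partner, the ubiquitin ligase Dtx3l, were at 8.2 and 6.98 with RA and at 6.33 and 5.70 without RA. Parp12, which binds viral RNA, was at 6.48 with RA and 4.58 without RA (1.91). Trim21, an intracellular antibody receptor, was at 6.41 with RA and 4.90 without RA, and Trim25, a ubiquitin ligase of the RNA helicase pathway, at 10.52 with RA and 9.83 without RA, under 2-fold. The eighth gene, Parp14, is given above.

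Both nuclear body genes were higher. Pml, the scaffold of these bodies and in human leukaemia a fusion partner of the RA receptor alpha, was at 10.41 with RA and 8.28 without RA (2.13). Sp100, another constituent, was at 9.23 with RA and 6.56 without RA (2.67), and its second probe set differed by 2.17. It was the only member with 2 probe sets.

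Several members are neighbours in the genome, in the order of protein-coding genes of RefSeq assembly GRCr8. Of the 56 members placed there, 16 consecutive pairs had at most 3 coding genes between them. Dtx3l stood next to Parp9 and to Parp14, and the 3 genes differed by 1.28, 1.87 and 4.37. Mx1 and Mx2 differed by 5.86 and 4.56, whereas Fam3b between them was lower, at 8.61 with RA and 9.65 without RA. Ifnar2, Il10rb, Ifnar1 and Ifngr2 follow each other, with differences of 1.16, 1.46, 0.11 and 1.81. Rsad2 and Cmpk2, which stand next to each other, differed by 2.11 and 0.62. Thus neighbours had like differences at some of these places and unlike ones at others.

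A list of 58 measured interferon-stimulated genes that are not members held more higher than lower genes. Like the members, it was chosen with earlier results of these data known, so it is no independent check of them. Of its genes, 17 had at least 2-fold more signal with RA and 1 had less, where 5.09% and 3.64% of all genes did. The median difference was 0.53 over the 48 above the floor. The largest differences were those of Lgals3bp, a secreted glycoprotein, at 9.77 with RA and 6.38 without RA, and of Nampt, an enzyme of NAD synthesis, at 10.16 with RA and 6.99 without RA. Rnf213, a large ubiquitin ligase, and the inflammatory protease gene Casp4 differed by 2.85 and 2.80. Sp110, Casp1, Trim5, Plscr1, Wars1, Mlkl, Ifitm1 and Slfn2 were also higher, by 1.09 to 2.34. The lower gene was Casp12, at 10.90 with RA and 12.12 without RA. Among the antigen loading genes in this list, B2m, Tapbp and Psmb9 were higher by 2.57, 2.15 and 1.40, and Tap1, Tap2, Psmb8 and Psmb10 were under 2-fold. Of the chemokine genes that report interferon gamma, Cxcl10 was at 6.06 with RA and 4.44 without RA, while Cxcl11 differed by 0.14 and Cxcl9 was under the floor on both arrays.

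**Figure D5:**
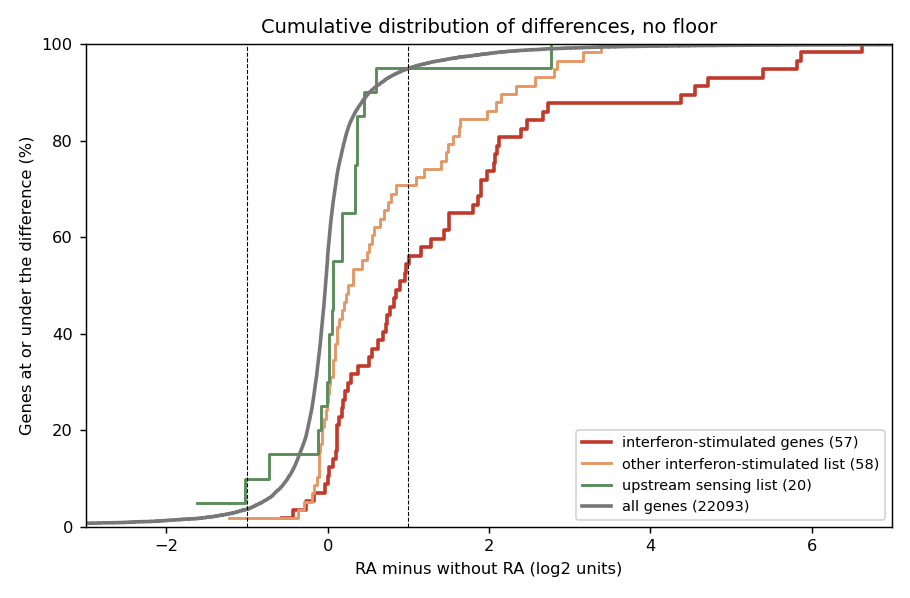
Share of genes, in percent, at or under each value of RA minus without RA in log2 units, with no floor, for the 57 members, the 58 other interferon-stimulated genes, the 20 upstream sensing genes and all 22093 genes. The dashed lines mark 2-fold, and the curve of the members lies to the right of the curve of all genes, with medians of 0.90 and -0.026.

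Markers of immune cells, which also express many of these genes, were mostly under the floor. Of 24 measured immune markers, 19 did not reach the floor on either array, beside 7819 of all 22093 genes. Levels of the 24 markers ran from 3.04 to 11.31 with RA and from 3.06 to 5.41 without RA. Ptprc, the common surface protein of blood cells, was at 3.42 with RA and 3.53 without RA. The 5 that reached the floor were Cd68, Cd74, Cd3d, Cd3g and Cd79a. Cd68, a lysosomal protein of macrophages and other cells, was at 11.31 with RA and 5.41 without RA, the 1 marker of these past 2-fold. Over all genes, 5.09% were at least 2-fold higher. Cd74, the invariant chain of antigen presentation, was at 4.98 with RA and 4.13 without RA, and the T and B cell receptor genes Cd3d, Cd3g and Cd79a were at 4.46 or less on both arrays. Of 10 fibroblast markers, 6 did not reach the floor on either array, and Col3a1 was lower, at 4.90 with RA and 7.03 without RA. Keratinocyte markers differed too. Of the 13 measured, 7 were at least 2-fold lower with RA and 1 higher, beside 3.64% and 5.09% of all genes. Among the lower was Krt14, at 12.25 with RA and at 19.93, the highest value of the table, without RA. The part of these cell types in the differences of the interferon-stimulated genes was not tested.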

How the data were processed

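RNA of the 2 cultures was labelled with a whole-transcript kit for GeneChip arrays, per the labels' protocols. The deposited table gives a log2 signal for each of 70580 probe sets on each array, for which the submitters' processing notes name RMA and the Transcriptome Analysis Console without versions. The log base was taken from the values. The deposited values reach 19.93, past the log2 ceiling of 16 of a scanner image, by a step that no source states. No member has a value above 16. The platform's genome build: not given in the sources used here. Depth does not apply to arrays, and their number, 1 per group, limits the precision.

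Gene names came from the platform annotation, in which 23446 probe sets carry 1 symbol. The 505 with several symbols and the 46629 without any were left out. Entrez IDs of 22077 probe sets matched RefSeq GRCr8. A gene with several probe sets was given by the one with the highest mean. The floor was 3.81, to be reached on at least 1 array. Counts of genes at 2-fold and medians were computed with Python 3.11.15, numpy 2.4.6, pandas 2.3.3 and statsmodels 0.14.6, and the counting was tested on simulated data. No test was run. For the motif search the first listed RefSeq window of each gene was used. Members, roles and gene lists were chosen with earlier results of these data known. Every measured member and the genes of the lists that differed by at least 2-fold, or whose role is introduced, could be named.

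As alternatives, arrays were scaled by their medians, by a lowess curve (span 0.2) or by quantiles, probe sets of a gene were averaged, and low values were raised to the floor. The floor was also dropped or set to 5.45, the 75th percentile, and bounds of 1.5-fold and 4-fold were used. The median was replaced by the mean or taken without Gbp2. The restriction to genes above the floor on both arrays was chosen after the data were seen.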

Additional observations from a re-analysis of the deposited data

How the results depend on the processing

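The 49 members above the floor included 26 that were higher by 2-fold or more and 0 that were lower, with a median difference of 1.16, against 7.88% higher, 5.63% lower and a median of -0.026 over all 14274 genes above it. Each of the 26 stayed at least 2-fold higher under centring, lowess, quantile normalization, averaging of probe sets and raising of values to the floor. For most of the 26, several of these settings could not have changed the call. Averaging could change only Sp100, the only member with 2 probe sets. Raising to the floor could change only Oasl, Oas1b and Rsad2 among the 26. Centring moved every member upward by the same amount. Under the scalings the count was 28 or 29 of 50, because Dhx58 and Ifi47, and under lowess and quantile normalization also Ifi27, passed 2-fold. The share of all genes above the floor that were at least 2-fold higher rose too. It was 8.30% under centring, 10.2% under lowess and 8.38% under quantile normalization. No member was at least 2-fold lower under any alternative run. The lowess curve moved the median of all genes to 0.075 and the share of higher genes among those called to 69.3%, against 58.3% as deposited, and the median of the members stood 1.31 above that of all genes, against 1.19 before. Under the higher floor (75th percentile) the median of the 37 members left was 1.87, a setting that removes dim genes. The mean in place of the median was 1.68. At 4-fold, 15 of the 49 members were higher, against 3.05% of all genes above the floor. At 1.5-fold 35 were higher, and the share of all genes at that bound was not counted. No paired analysis was possible because there is 1 array per group, which also leaves no replicate to omit. Signal near background limits the differences of Oasl, Oas1b and Rsad2, which were under the floor without RA. It also limits those of Oasl2, Lgals9, Gbp4 and Usp18, at 4.38, 4.39, 4.41 and 4.46 without RA. These levels were under the median of the negative controls on that array, 4.57, and above that of the background controls, 2.90.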

Other observations

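Genes that lie between members in the RefSeq order of GRCr8 did not all follow them. RGD1559575, between Irgm and Ifi47, was at 6.57 with RA and 4.76 without RA, a difference of 1.81. Of the synthetase genes between Oas1a, Oas1b and Oas3, Oas1k was at 6.06 with RA and 7.11 without RA, and Oas1f at 3.93 with RA and 4.67 without RA, both lower with RA while Oas1b was higher. Oas1h and Oas1e were under the floor on both arrays, as was Gbp7 between Gbp5 and Gbp4. These genes were looked up after the values of the members were seen, and close relatives may share signal on their probe sets.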
